A study of Mus musculus with 10 samples.

Results

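The 10 genes described here are a BMP and TGF-β set: the ligands *Bmp2* and *Bmp4*, the receptors *Bmpr1a*, *Tgfbr1* and *Tgfbr2*, the inhibitory SMADs *Smad6* and *Smad7*, and the target genes *Id1*, *Id2* and *Id3*. They were listed by name, and each was described through the ATAC-seq peaks over its gene body and 20 kb on each side (GRCm38, GENCODE M21). All 10 had a peak, and they are 10 of the 18477 protein-coding genes with a peak in such a window. Their windows held 76 of the 85680 regions formed by merging the peaks of all libraries, called sites below.

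ATAC-seq marks open chromatin by the insertions of a transposase, here in sorted live cells from mouse colon organoids, which are cultures grown from colonic crypts. Wild type (WT) organoids came from littermates of Villin-Cre *Ahr* fl/fl mice on a C57BL/6 background, and AHR KO organoids from the Villin-Cre *Ahr* fl/fl mice themselves, in which Cre is driven in epithelial cells. Each was kept in WENR or was moved to ENR for 4 days (d4 ENR), giving 2 WT WENR, 3 AHR KO WENR, 3 WT d4 ENR and 2 AHR KO d4 ENR libraries. Noggin, which binds BMP ligands, was in both media together with EGF and R-spondin1, whereas Wnt3a, the ALK5 inhibitor A83-01, the p38 inhibitor SB202190 and nicotinamide were in WENR alone. The medium comparison therefore changes Wnt3a, a block of the TGF-β type I receptor, the other additives and time in culture at once, and these cannot be told apart.

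BMP and TGF-β ligands bring type I and type II receptors together on the cell surface, and the type I receptor then phosphorylates SMAD proteins that bind DNA with SMAD4. BMP receptors act through SMAD1 and SMAD5 and turn on the *Id* genes, which encode inhibitors of basic helix-loop-helix factors, while SMAD6 and SMAD7 feed back to dampen the pathway. In the colon, BMP activity is low at the crypt base and rises towards the surface, where it favours differentiation.

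Sequences are shown first for the distal sites on which the account below turns. The motifs searched on both strands in the central 300 bases of each site were the BMP response element (GGCGNC, then 5 bases of any kind, then GTCT), the SMAD-binding palindrome GTCTAGAC, the GC-rich SMAD site GGCGCC, the AHR:ARNT site TNGCGTG, the TEAD site CATTCC and the AP-1 site TGANTCA, of which GGCGCC can overlap the first 6 letters of the BMP response element. Capitals mark any of these matches. A site is named by its gene and the distance of its centre from the gene start, and the sequence runs 5′ to 3′ on the strand of the gene (GRCm38). The first 3 are shown because they hold the BMP response element, one at each *Id* gene, and were picked after the motif counts were seen.
Id1 +3.1 kb (chr2:152739247-152739546, plus strand): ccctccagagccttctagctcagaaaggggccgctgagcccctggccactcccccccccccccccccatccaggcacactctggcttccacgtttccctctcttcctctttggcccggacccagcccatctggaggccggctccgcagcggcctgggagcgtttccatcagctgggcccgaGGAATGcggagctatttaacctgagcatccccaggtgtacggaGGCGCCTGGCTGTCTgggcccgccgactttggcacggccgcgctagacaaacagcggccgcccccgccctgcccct
Id2 -1.6 kb (chr12:25098606-25098905, minus strand): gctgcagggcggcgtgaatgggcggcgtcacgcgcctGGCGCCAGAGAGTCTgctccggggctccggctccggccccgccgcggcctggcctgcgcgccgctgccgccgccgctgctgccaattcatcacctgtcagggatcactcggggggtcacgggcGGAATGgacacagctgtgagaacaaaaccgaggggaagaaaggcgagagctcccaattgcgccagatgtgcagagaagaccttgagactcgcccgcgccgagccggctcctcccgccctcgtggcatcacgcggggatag
Id3 -2.9 kb (chr4:136140436-136140735, plus strand): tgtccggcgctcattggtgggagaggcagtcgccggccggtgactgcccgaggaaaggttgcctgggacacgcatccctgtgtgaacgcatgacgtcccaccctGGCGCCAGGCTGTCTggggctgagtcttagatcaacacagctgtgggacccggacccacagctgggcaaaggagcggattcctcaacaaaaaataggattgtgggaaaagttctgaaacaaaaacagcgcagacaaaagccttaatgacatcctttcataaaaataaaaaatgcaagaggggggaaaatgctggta
The next 2 lie in introns of *Tgfbr2* and had a peak in each of the 5 WENR libraries but lacked one throughout d4 ENR. The third intronic site holds the SMAD palindrome, and the last one, upstream of *Bmpr1a*, had peaks in WT libraries alone.
Tgfbr2 +39.5 kb (chr9:116135685-116135984, minus strand): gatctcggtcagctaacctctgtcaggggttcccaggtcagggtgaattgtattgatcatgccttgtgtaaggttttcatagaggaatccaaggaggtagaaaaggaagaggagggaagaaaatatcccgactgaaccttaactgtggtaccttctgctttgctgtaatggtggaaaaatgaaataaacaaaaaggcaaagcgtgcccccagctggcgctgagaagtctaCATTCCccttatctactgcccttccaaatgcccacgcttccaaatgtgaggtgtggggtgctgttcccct
Tgfbr2 +14.7 kb (chr9:116160528-116160827, minus strand): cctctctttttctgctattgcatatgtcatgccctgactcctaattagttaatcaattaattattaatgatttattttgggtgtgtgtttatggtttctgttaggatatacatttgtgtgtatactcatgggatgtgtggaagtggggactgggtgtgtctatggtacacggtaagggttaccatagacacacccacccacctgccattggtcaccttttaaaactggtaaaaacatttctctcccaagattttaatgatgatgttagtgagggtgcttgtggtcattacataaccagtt
Tgfbr2 +21.8 kb (chr9:116153364-116153663, minus strand): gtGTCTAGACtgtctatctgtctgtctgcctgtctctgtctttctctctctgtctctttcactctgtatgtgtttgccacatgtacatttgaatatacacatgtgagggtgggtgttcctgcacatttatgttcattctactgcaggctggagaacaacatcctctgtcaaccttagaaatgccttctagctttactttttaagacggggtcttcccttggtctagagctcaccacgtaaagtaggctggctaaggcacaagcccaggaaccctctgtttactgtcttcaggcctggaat
Bmpr1a -2.2 kb (chr14:34505405-34505704, minus strand): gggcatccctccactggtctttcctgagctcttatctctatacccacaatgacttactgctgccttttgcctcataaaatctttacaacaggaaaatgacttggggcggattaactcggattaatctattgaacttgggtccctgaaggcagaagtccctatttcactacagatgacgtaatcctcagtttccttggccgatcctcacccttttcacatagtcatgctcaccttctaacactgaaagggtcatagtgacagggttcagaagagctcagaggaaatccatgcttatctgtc

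The BMP response element was matched in 3 of the 76 sites (3.95%) and in 93 of all 85680 regions (0.109%). The 3 matches fell at *Id1*, *Id2* and *Id3*, each as GGCGCC followed by 5 bases and GTCT on the strand of the gene. These genes were listed as targets of the pathway, so the higher share is not independent of the choice of genes. The site 3.1 kb downstream of the *Id1* start read GGCGCCTGGCTGTCT, the one 1.6 kb upstream of *Id2* read GGCGCCAGAGAGTCT, and the one 2.9 kb upstream of *Id3* read GGCGCCAGGCTGTCT. GGCGCC, counting these 3, was in 10 sites (13.2%, against 5.99%). The SMAD palindrome was also in 3 sites, against 0.267% of all regions. It lay at the *Smad6* promoter, in the *Bmpr1a* intron site at +38.6 kb, which had a peak in 2 libraries, and in the *Tgfbr2* intron site at +21.8 kb. AHR:ARNT was matched in 1 site (1.32%, against 3.71% of regions), TEAD in 22 (28.9%, against 18.3%) and AP-1 in 12 (15.8%, against 19.4%). These matches describe letters and do not show binding.

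Libraries in d4 ENR held fewer and narrower peaks genome-wide. WENR lists had 61485 to 65308 peaks from 41686181 to 49126792 fragments, with 63.0% to 68.6% of coverage in peaks, and d4 ENR lists had 33433 to 58359 peaks from 30354729 to 36307860 fragments, with 14.1% to 44.2% of coverage in peaks. WT d4 ENR replicate 1 stood apart with the shortest list and the lowest share. Genotypes did not overlap within d4 ENR in coverage in peaks (14.1%, 24.4% and 30.9% in WT, 33.8% and 44.2% in AHR KO). Total peak length was also separated, at 26.2, 32.1 and 41.0 Mb in WT and 46.6 and 50.1 Mb in AHR KO. The part of these library differences in the genotype differences below was not tested. Fragments averaged 235 to 255 bp in WENR, 156, 172 and 200 bp in WT d4 ENR and 202 and 221 bp in AHR KO d4 ENR, and the part of fragment length in the results was not tested. Promoters of 10 of 10 colon epithelial markers were open in every library, whereas 2 of 6 fibroblast markers were open in every library and *Col1a2*, *Col3a1*, *Dcn* and *Lum* in none. *Cd68* was the one immune marker of 5 with a promoter peak (9 libraries), and *Kdr* the one endothelial marker of 4 (all WENR and no d4 ENR libraries). Of 3 muscle markers, 2 or 3 were open in WENR libraries and 0 or 1 in d4 ENR libraries, and the part of such cells was not tested. The *Ahr* window was covered more in AHR KO (6155 to 8145 bp in WENR, 4712 and 4471 bp in d4 ENR) than in WT (3277 and 3846 bp, then 1981 to 2632 bp), which does not show whether the floxed part was deleted.

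Peaks covered fewer bases at most genes of the set after 4 days in ENR, as they did genome-wide. Bases covered by peaks were lower in every d4 ENR than in every WENR library of the same genotype, in WT and in AHR KO, at 8 of the 10 genes, and this was so at 59.3% of all 18477 genes. The 2 others, *Smad6* and *Tgfbr1*, overlapped in AHR KO. The same 8 genes had an adjusted p under 0.05 (59.7% of all genes). In WT alone all 10 were lower, against 84.5% of genes, and in AHR KO alone 8, against 62.3%. The median difference over the 10 genes was −0.75 on a log2(bp + 100) scale, against −0.54 over all genes. Per Mb of all peak length in the library, 4 genes were lower (12.5% of all genes) and 1 was higher (25.7%), with a median of −0.08 against 0.09. Fold enrichment at sites called in all libraries had a median log2 difference of 0.16, against −0.04 over all regions called in all libraries. Genotypes were separated in d4 ENR, where each AHR KO library exceeded each WT library at 8 of 10 genes (59.5% of all genes) and the reverse held at none (0.260%), with a median difference of 0.45 against 0.44. These differences can lean on a single library. Without WT d4 ENR replicate 1 they were 0.24 at *Id1* and 0.20 at *Smad7*, and without replicate 2 they were 0.38 at *Id3* and 0.23 at *Tgfbr1*, in place of 0.38, 0.36, 0.58 and 0.35. No gene was covered more, or less, in all AHR KO than in all WT libraries in WENR (12.5% and 10.5% of all genes).

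**Figure D1:**
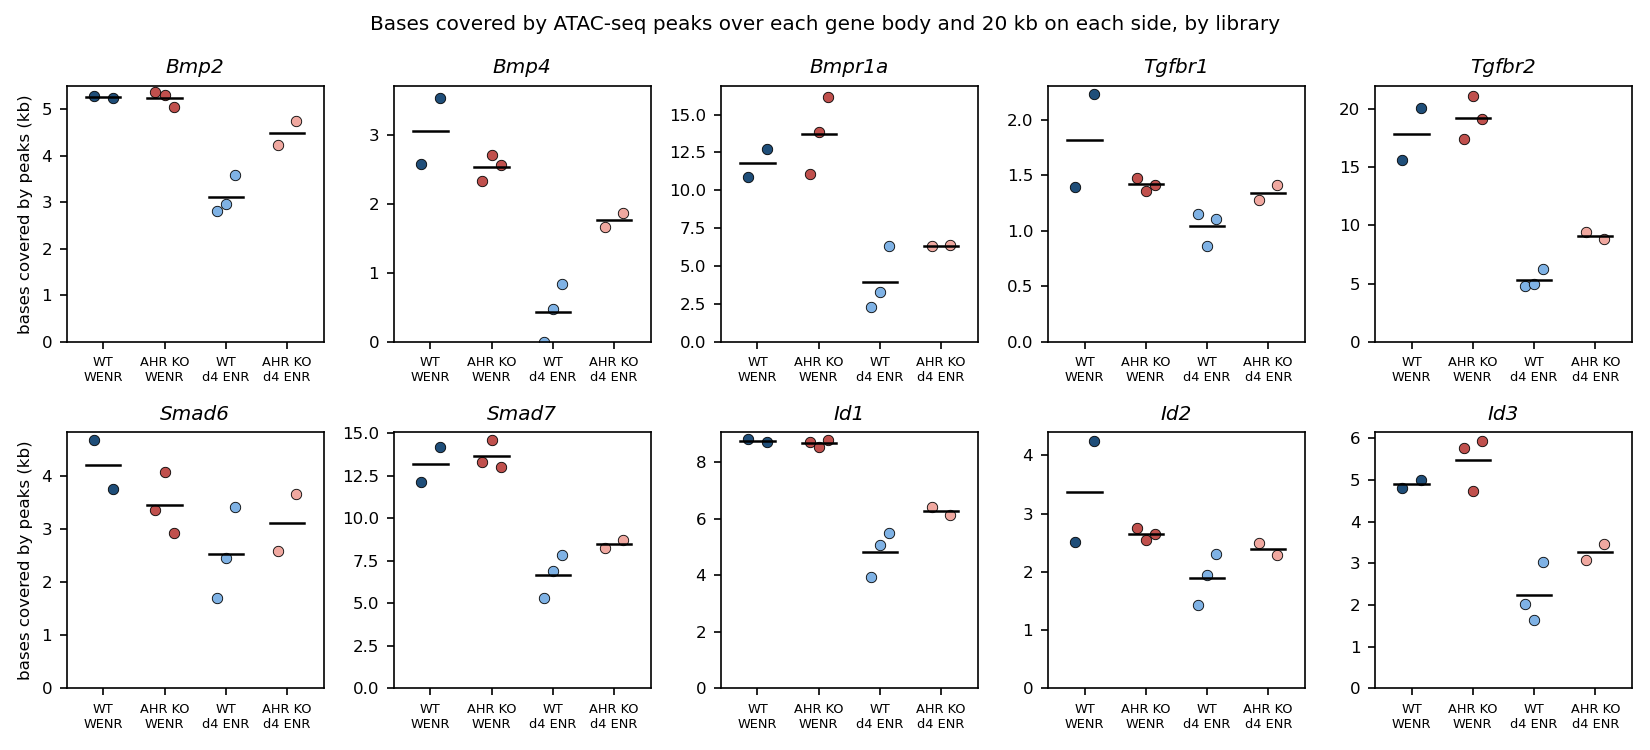
Bases covered by peaks (kb) over each gene and 20 kb on each side, with points for libraries and bars for the means of the 4 groups. The WT d4 ENR libraries are the lowest group at all 10 genes by the mean, and *Bmp4* reaches 0 bp in 1 of them.

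*Bmp2* (chr2:133552159-133562885, plus strand) encodes a BMP ligand made by differentiated epithelial cells. Its window was covered by 5295 and 5245 bp in WT WENR, 5374, 5298 and 5058 bp in AHR KO WENR, 2816, 2965 and 3587 bp in WT d4 ENR, and 4237 and 4745 bp in AHR KO d4 ENR. The 5 WENR libraries were close to each other, and both AHR KO libraries in d4 ENR lay between them and the WT d4 ENR libraries without overlap. The medium difference was −0.48 on the log2 scale (exact permutation test within genotypes, 2-sided, p = 0.02, adjusted over all genes 0.0335; p cannot go below 0.02 in this design). The call was lost with lists of equal length (−0.47) and with the gene body alone (−0.42), and per Mb of peak length the difference was 0.17. The genotype difference in d4 ENR was 0.52 (exact permutation p = 0.2, the smallest that 2 against 3 libraries allow). All 4 *Bmp2* sites had a peak in all 10 libraries. At the promoter site the 2 AHR KO d4 ENR libraries covered 2905 and 2957 bp, as wide as the 2842 to 2940 bp in WENR, and the WT d4 ENR libraries covered 1434, 1547 and 2008 bp.

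*Bmp4* (chr14:46383520-46390669, minus strand), a second BMP ligand, showed the largest differences of the set. Peaks covered 2578 and 3531 bp in WT WENR, 2334, 2702 and 2564 bp in AHR KO WENR, 0, 469 and 831 bp in WT d4 ENR, and 1660 and 1865 bp in AHR KO d4 ENR. WT fell to 14.2% of its WENR mean and AHR KO to 69.6%. On the log2 scale the medium difference was −1.78 (exact permutation p = 0.02, adjusted p = 0.0335), at −3.05 in WT and −0.50 in AHR KO. AHR KO exceeded WT in d4 ENR by 2.31 (exact permutation p = 0.2), which is at percentile 98.6 of all genes. The genotype difference changed between media by 2.55 (exact permutation p = 0.04), but not after adjustment over all genes (0.345), and no gene of the 18477 passed this test after adjustment while 11.6% had an unadjusted p under 0.05. Without WT d4 ENR replicate 1, in which no *Bmp4* peak was called, these 3 differences were −1.30, 1.35 and 1.60. *Bmp4* peaks were weak: when every list was shortened to its 33433 strongest peaks, none remained in WENR or WT d4 ENR, 1423 bp remained in AHR KO d4 ENR replicate 1, and the medium difference turned to 0.98. The window is shared with *Gm15217*.

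*Bmpr1a* (chr14:34410734-34503341, minus strand) encodes a BMP type I receptor. Its window was covered by 10903 and 12702 bp in WT WENR, 11094, 13827 and 16194 bp in AHR KO WENR, 2277, 3272 and 6318 bp in WT d4 ENR, and 6332 and 6384 bp in AHR KO d4 ENR. Media did not overlap, and the medium difference was −1.38 (exact permutation p = 0.02, adjusted p = 0.0335). In d4 ENR the highest WT library nearly met the lower AHR KO library, with a genotype difference of 0.80 that was 0.47 without WT replicate 1, and the call was lost with 5 kb on each side (0.93), with the gene body alone (1.07), with stronger peaks only (0.35 at a −log10 q of at least 5), with lists of equal length (0.20) and per Mb of peak length (0.24). Most of the loss lay outside the promoter. The promoter site covered 1428 to 1741 bp in WENR and 1129 to 1425 bp in d4 ENR, whereas the other 17 sites together covered 9312 to 14453 bp in WENR and 1043, 2143 and 4980 bp in WT d4 ENR and 4909 and 4959 bp in AHR KO d4 ENR. *Mmrn2* and *9230112D13Rik* share this window.

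The site 2.2 kb upstream of *Bmpr1a* was the one site of 76 called in both WT and in no AHR KO library in WENR (0.759% of all regions). It also had a peak in WT d4 ENR replicates 2 and 3 and in neither AHR KO d4 ENR library, so that 4 of 5 WT and 0 of 5 AHR KO libraries held it. These peaks were narrow, at 226 to 291 bp, with a fold enrichment (the pileup divided by that library's own local background) of 2.00, 1.68, 2.74 and 2.67. A peak that passes in one library may miss the threshold of the caller in another.

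*Tgfbr1* (chr4:47353222-47414931, plus strand) encodes ALK5, the type I receptor that A83-01 inhibits. It had a single site, at its promoter, in all 10 libraries. Peaks covered 1392 and 2235 bp in WT WENR, 1478, 1360 and 1413 bp in AHR KO WENR, 1149, 865 and 1106 bp in WT d4 ENR, and 1273 and 1410 bp in AHR KO d4 ENR. AHR KO in d4 ENR overlapped with AHR KO in WENR, the medium difference was −0.40 (exact permutation p = 0.04) and it did not pass after adjustment (0.0585). It was −0.24 without WT WENR replicate 2, the widest of the 10. AHR KO was above WT in d4 ENR by 0.35 without overlap (exact permutation p = 0.2). At this promoter the pileup, scaled to 10000000 fragments (scaled pileup below), was 64.7 to 81.6 in WENR, 22.6, 37.3 and 38.3 in WT d4 ENR and 41.5 and 45.8 in AHR KO d4 ENR.

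*Tgfbr2* (chr9:116084293-116175360, minus strand) encodes the type II receptor for TGF-β and had the most sites of the set, 19, of which 15 were intronic and 7 were called in a single library. Its window was covered by 15600 and 20117 bp in WT WENR, 17447, 21147 and 19166 bp in AHR KO WENR, 4813, 4966 and 6228 bp in WT d4 ENR, and 9443 and 8797 bp in AHR KO d4 ENR. The 4 groups did not overlap except for WT and AHR KO in WENR. The medium difference was −1.39 (exact permutation p = 0.02, adjusted p = 0.0335), at percentile 10.2 of all genes, and the genotype difference in d4 ENR was 0.77 (exact permutation p = 0.2). As at *Bmpr1a*, the promoter site kept much of its width, with 1907 to 2889 bp in WENR and 1591 to 1971 bp in d4 ENR, while the 18 other sites went from 12711 to 19240 bp down to 2937, 3375 and 4480 bp (WT) or 7472 and 6967 bp (AHR KO). The promoter still lost height, from a scaled pileup of 69.7 to 87.6 in WENR to 10.3, 13.9 and 22.7 in WT d4 ENR and 33.3 and 37.1 in AHR KO d4 ENR.

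Intronic sites at +39.5 kb and +14.7 kb of *Tgfbr2*, printed above, and a site at +29.9 kb of *Smad7*, past the end of the gene (chr18:75396338-75398557), were the 3 of 76 called in all WENR and no d4 ENR library (5.46% of all regions). All were low, with fold enrichments of 2.03 to 2.61 at +39.5 kb, 2.03 to 2.50 at +14.7 kb and 2.16 to 2.39 at *Smad7*. With lists of equal length no such site remained. None of the 76 sites was called in all d4 ENR and no WENR library (0.317% of regions), and in d4 ENR none was restricted to either genotype (2.84% of regions were restricted to AHR KO and 0.0864% to WT). In WENR none was restricted to AHR KO (1.18%). The *Tgfbr2* site at +21.8 kb, with the SMAD palindrome, had a scaled pileup of 12.6 and 16.3 in WT WENR, 17.2, 20.2 and 25.9 in AHR KO WENR, 5.40 and 6.38 in 2 WT d4 ENR libraries and 4.78 and 7.86 in AHR KO d4 ENR, and no peak in WT d4 ENR replicate 1.

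Of the inhibitory SMADs, *Smad7* was called in both comparisons and *Smad6* in neither. *Smad7* (chr18:75367529-75395935, plus strand), which blocks type I receptors of both branches, was covered by 12153 and 14212 bp in WT WENR, 13320, 14574 and 13003 bp in AHR KO WENR, 5323, 6880 and 7829 bp in WT d4 ENR, and 8244 and 8700 bp in AHR KO d4 ENR. Groups in d4 ENR overlapped neither with each other nor with WENR, with a medium difference of −0.83 (exact permutation p = 0.02, adjusted p = 0.0335) and a genotype difference in d4 ENR of 0.36 (exact permutation p = 0.2). *Smad6* (chr9:63953076-64022059, minus strand), which acts mainly on BMP receptors, was covered by 4669 and 3755 bp in WT WENR, 3362, 4073 and 2920 bp in AHR KO WENR, 1697, 2454 and 3411 bp in WT d4 ENR, and 2577 and 3654 bp in AHR KO d4 ENR. Its AHR KO libraries overlapped between media and its genotypes overlapped in d4 ENR. The medium difference of −0.46 gave an exact permutation p of 0.08 (adjusted p = 0.104) and the genotype difference in d4 ENR of 0.33 an exact permutation p of 0.4. The latter was 0.08 without WT replicate 1 or without AHR KO replicate 2. Whether *Smad6* and *Smad7* differ from each other was not tested. The *Smad6* promoter, which holds the SMAD palindrome, went from a scaled pileup of 67.4 to 86.0 in WENR to 20.6, 26.0 and 27.9 in WT and 45.9 and 46.9 in AHR KO in d4 ENR, at a fold enrichment of 4.06 to 5.09 in WENR and 3.83 to 4.94 in d4 ENR.

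*Id1* (chr2:152736251-152737410, plus strand) was the most even gene of the set in WENR. Its window, shared with *Cox4i2*, was covered by 8806 and 8727 bp in WT WENR, 8731, 8525 and 8785 bp in AHR KO WENR, 3931, 5082 and 5498 bp in WT d4 ENR, and 6410 and 6134 bp in AHR KO d4 ENR. Media and, in d4 ENR, genotypes did not overlap. The medium difference was −0.66 (exact permutation p = 0.02, adjusted p = 0.0335) and the genotype difference in d4 ENR was 0.38 (exact permutation p = 0.2). The promoter site covered 2212 and 2164 bp in AHR KO d4 ENR, within the 2147 to 2319 bp of WENR, and 892, 1215 and 1142 bp in WT d4 ENR. With the gene body alone or 5 kb on each side the medium call was lost, at −0.26 and −0.27.

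*Id3* (chr4:136143497-136145755, plus strand) was covered by 4816 and 5006 bp in WT WENR, 5765, 4732 and 5923 bp in AHR KO WENR, 2031, 1628 and 3029 bp in WT d4 ENR, and 3087 and 3462 bp in AHR KO d4 ENR. The medium difference was −0.93 (exact permutation p = 0.02, adjusted p = 0.0335) and the genotype difference in d4 ENR 0.58 (exact permutation p = 0.2), in both cases without overlap. All 7 *Id3* sites had a peak in every WENR library and 4 had one in every library. The most enriched of them lay 20.1 kb upstream (chr4:136122670-136124044). Its fold enrichment was 5.53 and 5.23 in WT WENR, 5.24, 6.08 and 5.29 in AHR KO WENR, 2.95, 3.69 and 4.02 in WT d4 ENR, and 4.33 and 4.68 in AHR KO d4 ENR. It was lower in d4 ENR in both genotypes and higher in AHR KO in d4 ENR, with a medium difference of −0.45 on the log2 scale (exact permutation p = 0.02) that did not pass after adjustment over the 28205 regions called in all libraries (0.0853).

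*Id2* (chr12:25093799-25097140, minus strand) was covered by 2504 and 4251 bp in WT WENR, 2754, 2542 and 2648 bp in AHR KO WENR, 1435, 1937 and 2298 bp in WT d4 ENR, and 2491 and 2294 bp in AHR KO d4 ENR. Media did not overlap (−0.46, exact permutation p = 0.02, adjusted p = 0.0335), although the AHR KO libraries of both media lay close together, and the difference was −0.28 without WT WENR replicate 2. Genotypes overlapped slightly in d4 ENR (0.35, exact permutation p = 0.4), and the difference was 0.17 without WT replicate 1. The medium call was lost with lists of equal length (−0.21), with stronger peaks only (−0.50) and with the gene body alone (−0.16).

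The 3 sites with the BMP response element were all lower or without a peak in d4 ENR. At *Id1* +3.1 kb the scaled pileup was 99.5 and 97.3 in WT WENR, 96.4, 112.5 and 107.3 in AHR KO WENR, 17.9, 23.8 and 32.8 in WT d4 ENR, and 42.9 and 54.2 in AHR KO d4 ENR. At *Id2* −1.6 kb it was 48.7 and 49.4, then 58.3, 59.5 and 54.2, then 9.39, 12.9 and 16.1, and 19.4 and 25.0 in the same groups. Both were lower in d4 ENR and, within d4 ENR, higher in AHR KO without overlap, as were 83.6% and 75.2% of the regions called in all 10 libraries. The log2 medium differences were −1.58 and −1.68 (exact permutation p = 0.02, adjusted p = 0.0239 for each). *Id3* −2.9 kb had a peak in every WENR library, at 28.3 to 33.7, and in d4 ENR a peak in AHR KO replicate 2 alone, at 16.4. Fold enrichment overlapped between media: at *Id1* +3.1 kb it was 2.54 to 2.78 in WENR and 2.64 to 3.61 in d4 ENR, and at *Id2* −1.6 kb 3.32 to 3.86 and 2.94 to 3.74.

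**Figure D2:**
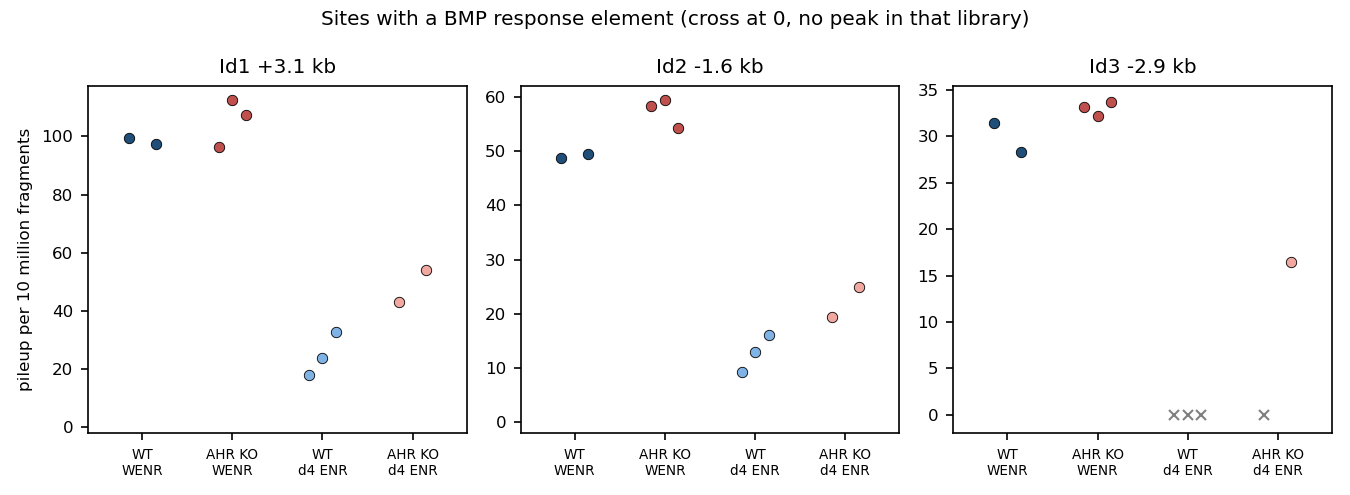
Pileup scaled to 10000000 fragments at the 3 sites that hold a BMP response element, by group, with points for libraries and crosses at 0 for libraries with no peak. *Id1* +3.1 kb and *Id2* −1.6 kb are lowest in WT d4 ENR, and *Id3* −2.9 kb has a peak in 1 of 5 d4 ENR libraries.

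Promoter sites persisted more often than other sites, in the set and in the genome. All 11 promoter sites had a peak in every WENR library, as did 14524 of the 16449 promoter regions genome-wide. Of the 11, 9 had a peak in every d4 ENR library too, against 82.1% of those 14524 regions. The other 2, at *Bmp4* and at a second start of *Smad7*, were missed in WT d4 ENR replicate 1 alone. Of the 38 other sites called in every WENR library, 17 were called in every d4 ENR library (43.1% of such regions) and 3 in none (11.3%). By library the sites with a peak numbered 53 to 63 in WENR, 30, 40 and 46 in WT d4 ENR and 39 and 45 in AHR KO d4 ENR. In all, 26 of 76 sites had a peak in all 10 libraries (32.9% of all regions).

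**Figure D3:**
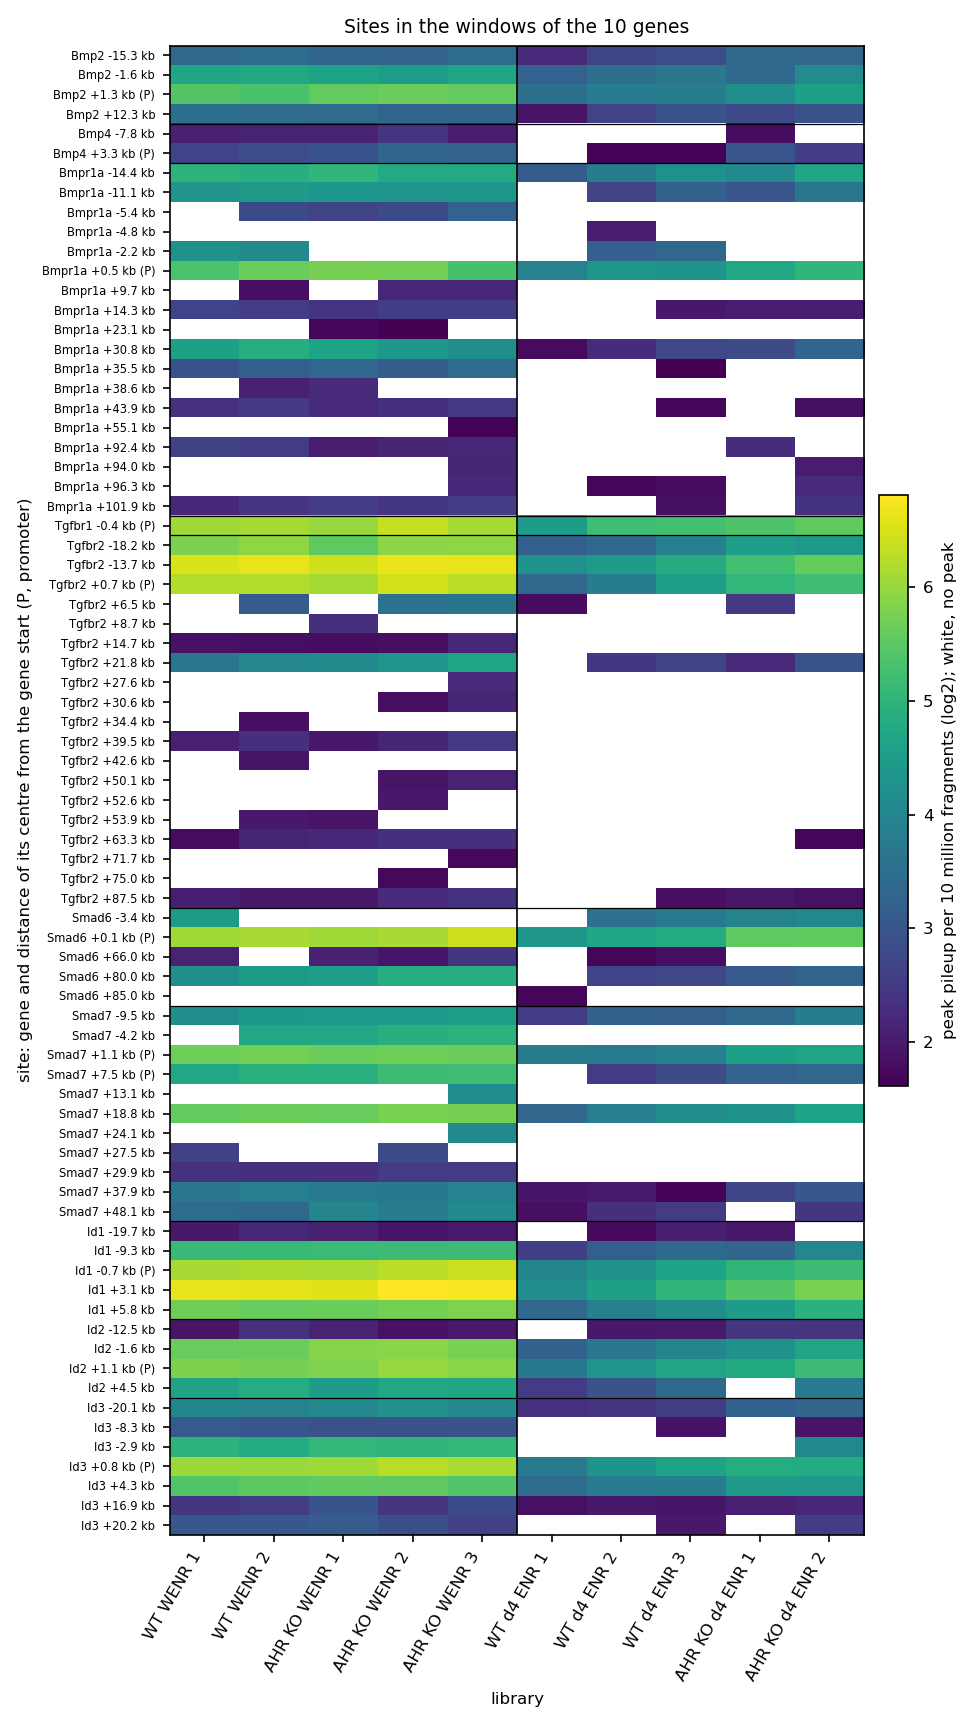
Pileup scaled to 10000000 fragments (log2 colour scale) of the 76 sites in the 10 libraries, with 1 row a site, ordered by gene and by distance from the gene start, where white marks no peak and (P) a promoter site. Of the 26 rows filled in every library 9 are promoters. *Tgfbr2* has 8 to 13 of its 19 rows filled in WENR libraries and 4 to 6 in d4 ENR libraries. *Bmpr1a* has 10 to 14 of its 18 rows filled in WENR libraries and 3 to 10 in d4 ENR libraries.

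Height and contrast of these 26 sites had median differences of opposite sign between media. Scaled pileup was lower in d4 ENR in both genotypes at 25 of 26 sites (83.6% of the regions called in all libraries), with *Bmp2* −15.3 kb as the other one. None was higher (0.167%), and the median log2 difference was −1.43 against −1.13 over all regions called in all libraries. Fold enrichment had a median difference of 0.16 against −0.04, and 7 sites were higher in d4 ENR in both genotypes without overlap (8.13% of such regions) while 2 were lower (15.3%), both at *Id3*. The 7 were the promoters of *Id1*, *Id2* and *Smad7*, *Id1* +5.8 kb, *Smad7* +18.8 kb, *Bmp2* −1.6 kb and *Tgfbr2* −13.7 kb, each with an exact permutation p of 0.02 and an adjusted p of 0.0853. At *Tgfbr2* −13.7 kb fold enrichment was 2.30 and 2.35 in WT WENR, 2.28, 2.25 and 2.18 in AHR KO WENR, 3.05, 3.56 and 3.50 in WT d4 ENR, and 2.80 and 3.14 in AHR KO d4 ENR. Fold enrichment divides by the local background of its own library, and the part of that background in these differences was not tested.

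Between genotypes, AHR KO exceeded WT in d4 ENR by scaled pileup at 22 of the 26 sites (75.2% of such regions) and was below it at none (0.0957%), with a median log2 difference of 0.75 against 0.70. By fold enrichment it exceeded WT in d4 ENR at 3 sites (12.7%) and was below it at 1 (3.08%), with a median difference of −0.02 against 0.08. In WENR scaled pileup was higher in AHR KO at 7 sites (23.2%) and lower at 3 (10.3%), and fold enrichment was higher at 2 (10.8%) and lower at 4 (11.7%).

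The genome-wide loss of peak length was then divided out, as covered bp per Mb of all peak length in the library. This moved the median medium difference of all genes from −0.54 to 0.09 and of the 10 genes from −0.75 to −0.08. *Bmp4*, *Bmpr1a*, *Tgfbr2* and *Id3* were still lower in d4 ENR in both genotypes without overlap (12.5% of all genes), at −1.29, −0.72, −0.73 and −0.28. Each had an exact permutation p of 0.02, and no gene of the 18477 passed after adjustment on this scale. *Smad7* was lower without overlap in AHR KO (21.4% of all genes) but not in WT (20.9%). *Bmp2* was higher (0.17; 25.7% of genes), at 83.5 to 85.6 per Mb in WT WENR, 75.3 to 86.7 in AHR KO WENR, 87.6 to 107.4 in WT d4 ENR and 91.0 and 94.7 in AHR KO d4 ENR. *Id1* did not move (0.00), with 130.7 to 142.4 in WENR and 122.5 to 158.5 in d4 ENR. The genotype difference in d4 ENR remained without overlap at *Bmp4* alone (2.09; 10.7% of genes), with 0, 14.6 and 20.3 per Mb in WT and 35.7 and 37.2 in AHR KO. *Id2* (−0.20) and *Smad7* (−0.21) were then lower in AHR KO (22.0% of genes). In WENR no gene of the set was higher (9.04%) or lower (17.0%) in AHR KO, and *Bmp4* alone had an unadjusted exact permutation p under 0.05 for genotype by medium (0.04; 5.20% of genes). On this scale the genotype difference also changed sign at *Id1*, *Bmp2*, *Tgfbr1* and *Smad6*, at −0.18, −0.04, −0.18 and −0.22, with overlapping libraries. The medium difference turned positive at *Id2* (0.18), *Smad6* (0.19) and *Tgfbr1* (0.23), with overlap in WT at each and at *Smad6* in AHR KO too. In AHR KO, *Id2* and *Tgfbr1* were higher in d4 ENR without overlap. The share of all genes higher in AHR KO alone was not counted. In bulk samples, fewer cells with an open site and less opening per cell cannot be told apart.

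**Figure D4:**
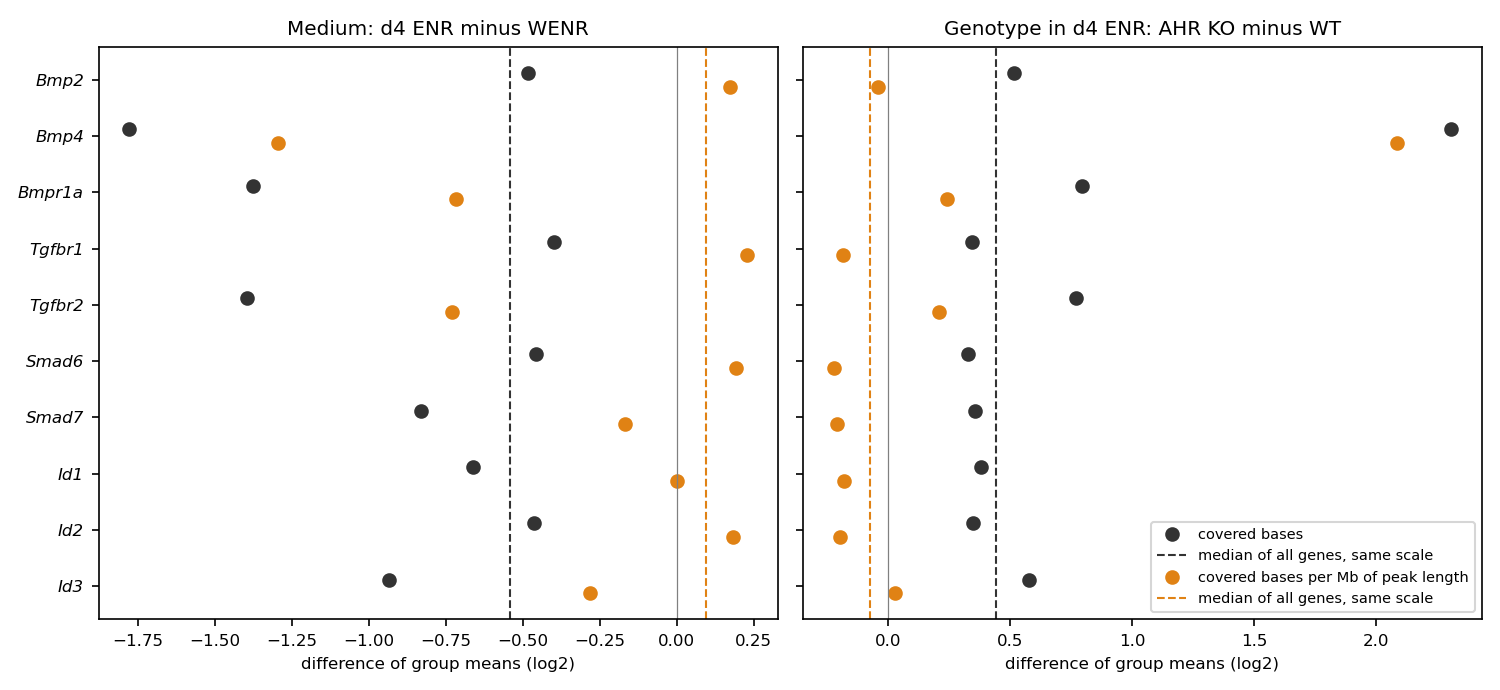
Differences of group means (log2) for the 10 genes, for the medium (left) and for genotype in d4 ENR (right), in covered bases (black) and in covered bases per Mb of peak length (orange), with dashed lines at the medians of all 18477 genes. *Bmp4*, *Bmpr1a* and *Tgfbr2* lie left of the others in the medium panel on both scales, and *Bmp4* lies at 2.31 and 2.09 in the genotype panel.

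The wider pathway was described with lists of 19 further ligands, 11 receptors, 6 receptor-activated or common SMADs, 20 inhibitors and 15 targets. Of these 71 genes 68 had a peak in the window and are described here. The list names are loose: the ligands include *Bmp1*, which encodes a protease, and the inhibitors include *Ltbp1* to *Ltbp4*, which bind latent TGF-β. Covered bases were lower in d4 ENR in both genotypes at 16 of 19 ligands, 7 of 11 receptors, 5 of 6 SMADs, 11 of 17 inhibitors and 9 of 15 targets, which is 48 of 68 genes against 59.3% of all genes, and higher at none (0.357%). Per Mb of peak length 15 of the 68 were lower (12.5% of all genes) and 13 higher (25.7%). AHR KO exceeded WT in d4 ENR at 13 ligands, 7 receptors, 4 SMADs, 13 inhibitors and 10 targets, 47 genes in all (59.5% of all genes), and per Mb at 13 genes (10.7%), with 10 lower (22.0%). Over the 68 genes the median medium difference was −0.77, against −0.54 over all genes, and per Mb it was −0.12, against 0.09.

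Among the genes called lower in d4 ENR, the largest medium difference was that of *Nodal*, a ligand of the activin branch, with 3875 and 5145 bp in WT WENR, 3757, 5040 and 4748 bp in AHR KO WENR, 0, 255 and 943 bp in WT d4 ENR, and 262 and 596 bp in AHR KO d4 ENR. *Tgfb2*, a TGF-β ligand, was covered by 3823 to 4675 bp in WENR, 216, 596 and 666 bp in WT d4 ENR, and 1312 and 2365 bp in AHR KO d4 ENR. *Grem1*, a secreted BMP antagonist, had 302 to 537 bp in WENR, no peak in any WT d4 ENR library, and 319 and 244 bp in AHR KO d4 ENR. The other genes of the 10 with the largest medium differences among those called were the ligands *Gdf6*, *Gdf7*, *Bmp8b* and *Bmp5*, the ubiquitin ligase *Smurf1* and the targets *Runx3* and *Msx1*, at −3.18 to −1.20 on the log2 scale, each with an exact permutation p of 0.02 and an adjusted p of 0.0335. *Runx3* was covered by 5631 to 6060 bp in WENR, 1349, 615 and 2229 bp in WT d4 ENR and 4568 and 4274 bp in AHR KO d4 ENR. Per Mb of peak length, media overlapped in at least 1 genotype at *Gdf6* (−2.70), *Grem1* (−1.10) and *Runx3* (−0.62). The rest of the 10 stayed lower in d4 ENR in both genotypes without overlap, and none passed after adjustment on that scale.

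Genotypes were separated in the same direction in both media at 6 of the 68 genes, and AHR KO was higher at each (7.54% of all genes were higher in both media and 0.0162% lower). Per Mb of peak length 3 of the 68 genes were higher (9.04% of all genes) and 15 lower (17.0%) in AHR KO in WENR. The 6 genes were *Ltbp4*, which binds latent TGF-β, the receptors *Acvr1c* and *Acvr2b*, the co-receptor *Eng*, the activin subunit gene *Inhba* and *Msx1*. Of the 6, *Ltbp4* alone stayed higher in AHR KO in both media without overlap per Mb of peak length. On that scale in d4 ENR, *Inhba* was lower in AHR KO without overlap. The genotypes overlapped there at *Acvr1c*, *Acvr2b*, *Eng* and *Msx1*. In covered bases, the values of 2 of the 6 are as follows. *Ltbp4* was covered by 8904 and 8945 bp in WT WENR, 11140, 10318 and 11199 bp in AHR KO WENR, 2625, 2826 and 4684 bp in WT d4 ENR, and 6711 and 6301 bp in AHR KO d4 ENR, a difference of 0.28 in WENR and 0.97 in d4 ENR. *Eng* was covered in WENR by 2918 and 2899 bp (WT) or 3116, 3709 and 3934 bp (AHR KO), whereas in d4 ENR its 3 WT libraries had 1904, 1898 and 1964 bp and its 2 AHR KO libraries 2576 and 2517 bp. With 2 against 3 libraries the exact permutation p of each such difference is 0.2, the smallest possible, so none can pass a threshold of 0.05.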

How the data were processed

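Omni-ATAC-seq of 10 libraries was used, grouped by the genotype and medium in the sample labels. Per the labels and file headers, reads were aligned by the authors to GRCm38, and broad peaks were called library by library, without pooling or a control, with MACS 2.2.7.1 (q value 0.1 broad, 0.05 narrow, background window 10000 bp). Each deposited list gives pileup, a coverage signal not scaled for depth, the fold enrichment ratio over local background, and −log10 p and q values. The lists hold no read counts, so the DESeq2 comparison of the authors was not repeated. Organoids were grown from several mice of each genotype, but no source ties a library to a mouse, so p-values measure only the spread between these libraries.

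Bases covered by peaks were summed per gene window and compared as log2(bp + 100) with 2-sided exact permutation tests over libraries (2 times the smaller tail), with media permuted within genotypes (100 arrangements, smallest p 0.02) or genotypes within a medium (10 arrangements, smallest p 0.2), and Benjamini-Hochberg adjustment over 18477 genes. A gene or site was called where libraries of the groups did not overlap. Sites are peaks of all libraries merged at 1 bp or more. A promoter was a transcript start with the 1 kb before it and the 100 bp after it. Pileup was scaled to 10000000 fragments, and values per Mb used a pseudocount of 2. Depth was 30354729 to 49126792 fragments, and an absent peak means only that the threshold was not passed. Sequences came from the GRCm38 RefSeq genome.

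All 10 genes are named. Of the pathway lists, the 10 with the largest medium difference among called genes and every gene called for genotype in both media are named. Sites named are promoters, the most enriched site of a gene and sites that part media or genotypes, and sites with SMAD motifs or of a stated pattern were added after their values were seen. The genes and lists were chosen with earlier results of these data known. Alternatives were lists of equal length, a −log10 q of at least 5, 5 kb flanks, gene bodies alone, values per Mb, a pseudocount of 10 bp, at least 50% of a site covered, omission of each library, and a block for replicate number. Procedures were tested on simulated data. Python 3.11.15, numpy 2.4.6, pandas 2.3.3, pysam 0.24.0 and matplotlib 3.10.9 were used.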

Additional observations from a re-analysis of the deposited data

How the results depend on the processing

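The count of genes covered less in d4 ENR (8) was 5 with lists of equal length, 5 with the gene body alone, 4 per Mb of peak length and 8 to 10 with each library left out. The count covered more in AHR KO in d4 ENR (8) was 1 per Mb and 8 to 10 with each library left out. In WENR this count (0) was 1 with 5 kb on each side and with the gene body alone, and 0 to 4 with each library left out: 4 without WT replicate 2 and 1 without each AHR KO replicate. No gene passed the test of genotype by medium under any alternative in which it was run, and 0 passed with each library left out. Sites called in all libraries (26) numbered 15 with a −log10 q of at least 5, 10 with at least 50% of the site covered, 17 with 5 kb on each side and 26 to 32 with each library left out. Sites called in all WENR and no d4 ENR library (3) numbered 0 with lists of equal length, 9 with at least 50% covered, and 3 to 5 with each library left out, 5 of them without WT WENR replicate 1 or either AHR KO d4 ENR replicate. Sites called in AHR KO only in d4 ENR (0) numbered 3 with a −log10 q of at least 5, 2 with at least 50% covered and 0 to 3 with each library left out: 3 without AHR KO replicate 1, 2 without AHR KO replicate 2 and 2 without WT replicate 3. Sites called in WT only in d4 ENR (0) numbered 1 with lists of equal length and 0 to 2 with each library left out, 2 without WT replicate 1 or AHR KO replicate 2. Sites called in all d4 ENR and no WENR library stayed at 0 with each library left out. The median log2 ratio of fold enrichment (0.16) was 0.10 to 0.21 with each library left out, and −1.43 for scaled pileup. Per Mb, the medium difference turned to 0.0013 at *Id1*, 0.18 at *Id2* and 0.17 at *Bmp2*, and at *Smad6* (0.19) and *Tgfbr1* (0.23), which were not called. The genotype difference in d4 ENR turned to −0.18 at *Id1*, −0.20 at *Id2*, −0.21 at *Smad7*, −0.22 at *Smad6*, −0.0393 at *Bmp2* and −0.18 at *Tgfbr1*. With lists of equal length the medium difference turned to 0.98 at *Bmp4*, and to 0.0294 at *Id2* when WT d4 ENR replicate 1 was also left out, a setting chosen after seeing the data. In WENR the genotype difference ranged from −0.664 to 0.0769 at *Id2* and from −0.0253 to 0.0176 at *Bmp2* with each library left out. It was above 0 at *Id2* only without WT replicate 2, and at *Bmp2* only without AHR KO replicate 3. The cause of these changes was not tested. Fewer libraries make it easier for groups not to overlap, and shares of all genes under the alternatives are given above only for values per Mb. The counts under the other alternatives are therefore not read as traits of the set. The block for replicate number used replicates 1 and 2 only and called genes by the sign of differences between same-numbered libraries. With this block, 9 genes were covered less in d4 ENR, 10 more in AHR KO in d4 ENR and 4 more in AHR KO in WENR. The *Bmp2* genotype difference in WENR was 0.0176 and the median fold enrichment ratio 0.14. The numbers do not pair the libraries by label, and deviations of same-numbered libraries correlated between −0.04 and −0.01 over genes and −0.11 and 0.02 over regions. The block gave no test of genotype by medium.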
